A study of Mus musculus and Homo sapiens with 16 samples.

Results

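HaCaT is an immortal line of human keratinocytes, the main cell type of the epidermis. Chromatin immunoprecipitation followed by sequencing (ChIP-seq) was carried out on it once for the transcription factor KLF5 and once for H3K27ac. The peak lists of these 2 samples, on the human genome build hg19, held 22269 KLF5 peaks and 39681 H3K27ac peaks, together 61950 of the 128482 peaks in the 5 peak lists of the series. All peaks of both lists were taken, with no choice by strength. The cells are labelled wild type and were not sorted; they were detached with trypsin, and libraries were made by tagmentation, in which a transposase cuts the DNA and adds the adapters. The rest of the series is from mouse C57BL/6 skin epithelium, at the embryonic stage E17.5 or of an age that the labels do not give. From it, the KLF5 and H3K27ac lists of wild type E17.5 epithelium, sorted as DAPI-, CD45- and integrin alpha 6 positive, with 6472 and 18155 peaks on mm10, serve here for side-by-side summaries. The fifth list, of open chromatin from mouse E17.5 epithelium labelled wild type but titled Het, held 41905 peaks.

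KLF5 is a zinc-finger transcription factor of the Krüppel-like family, which binds GC-rich and CACCC-type DNA and is made in the proliferating layer of many epithelia, the epidermis included. H3K27ac is an acetyl group on a lysine of the tail of histone H3. It marks the nucleosomes at active promoters and enhancers, so a factor's peak inside an H3K27ac peak lies in chromatin that carries a mark of activity. HaCaT cells grow without limit, carry an abnormal set of chromosomes and can still start keratinocyte differentiation, so they stand for keratinocytes of 1 line and not for epidermis.

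Each antibody was used on 1 HaCaT sample, without a replicate, so no difference between lists could be tested against the spread between cultures. The number of reads behind the peaks is unknown. The 95% intervals below (Wilson for shares, order statistics for medians) cover counting error over peaks only, and peaks of 1 library are not independent. Peaks are given by position, since no human gene annotation was used here. For the same reason the label keratinocyte was not checked against marker genes.

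The KLF5 peaks were short and the H3K27ac peaks had a long tail of wide domains. The median KLF5 peak was 367 bp wide, with quartiles of 251 and 546 bp, and the median H3K27ac peak was 449 bp wide, with quartiles of 270 and 814 bp. Peaks of over 1 kb made up 17.6% of the H3K27ac list (6993 peaks) and 3.26% of the KLF5 list (726 peaks). At the other end, 7.70% of KLF5 and 5.83% of H3K27ac peaks had a width of exactly 200 bp, the smallest in either list. The KLF5 peaks covered 9.68 Mb in all and the H3K27ac peaks 24.1 Mb, which is 0.329% and 0.820% of the span of chromosomes 1 to 22 and X.

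Most peaks of both lists were of modest strength. The fold enrichment at the summit, the authors' ratio of ChIP signal to background, had a median of 4.31 for KLF5 with quartiles of 3.76 and 5.01, and a median of 3.85 for H3K27ac with quartiles of 3.23 and 4.55. It ranged from 1.33 to 16.6 for KLF5 and from 1.41 to 15.2 for H3K27ac. The fold depends on each library's depth and background, so these values describe each list alone. The −log10 q value, the strength of evidence for a peak after correction for multiple testing, was at least 10 for 4085 KLF5 peaks (18.3%) and 9046 H3K27ac peaks (22.8%). Wider peaks had higher −log10 q values in both lists (Spearman's rho across peaks 0.71 for KLF5 and 0.79 for H3K27ac), while width and fold enrichment went together less closely (0.46 and 0.38).

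Most KLF5 peaks shared bases with an H3K27ac peak, and most had their summit inside one. Of the 22269 KLF5 peaks, 16187 shared at least 1 bp with an H3K27ac peak, a share of 72.7% (95% interval 72.1 to 73.3%). The summit of the KLF5 peak itself lay inside an H3K27ac peak for 66.9% (66.3 to 67.5%), 81.6 times the share of the span that the H3K27ac peaks cover. That span runs from the first to the last peak of each chromosome. It includes 168 Mb in stretches of at least 3 Mb without any peak, which raise this ratio. Whole KLF5 peaks were covered for 39.9%. The overlap looks different from the other side, because the H3K27ac list is longer: 15636 of 39681 H3K27ac peaks shared a base with KLF5, a share of 39.4% (38.9 to 39.9%). Of the bases in KLF5 peaks 69.8% were also in H3K27ac peaks, and of those in H3K27ac peaks 28.1% were also in KLF5 peaks.

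H3K27ac peaks with KLF5 were wider and stronger than those without. Their median width was 758 bp (95% interval 746 to 769 bp) against 339 bp (335 to 342 bp), and their median fold enrichment 4.23 against 3.63. A −log10 q of at least 10 was reached by 44.6% of the H3K27ac peaks with KLF5 and by 8.59% of those without. Wide peaks have more bases in which another peak can fall, so the number of KLF5 summits per kb of H3K27ac peak was also counted. It was 0.318 per kb in the narrowest of 10 equal bands of H3K27ac peaks ranked by width, reached 0.723 per kb in band 7, of 561 to 716 bp, and was 0.609 per kb in the widest band.

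KLF5 peaks inside H3K27ac were also wider than those outside, and their fold enrichment was nearly the same. Their median width was 419 bp (414 to 423 bp) against 269 bp (265 to 272 bp) for the 6082 KLF5 peaks that shared no base with H3K27ac. Their median fold enrichment was 4.36 (4.34 to 4.38) against 4.19 (4.17 to 4.23). A −log10 q of at least 10 was reached by 23.0% inside and 5.85% outside.

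**Figure D1:**
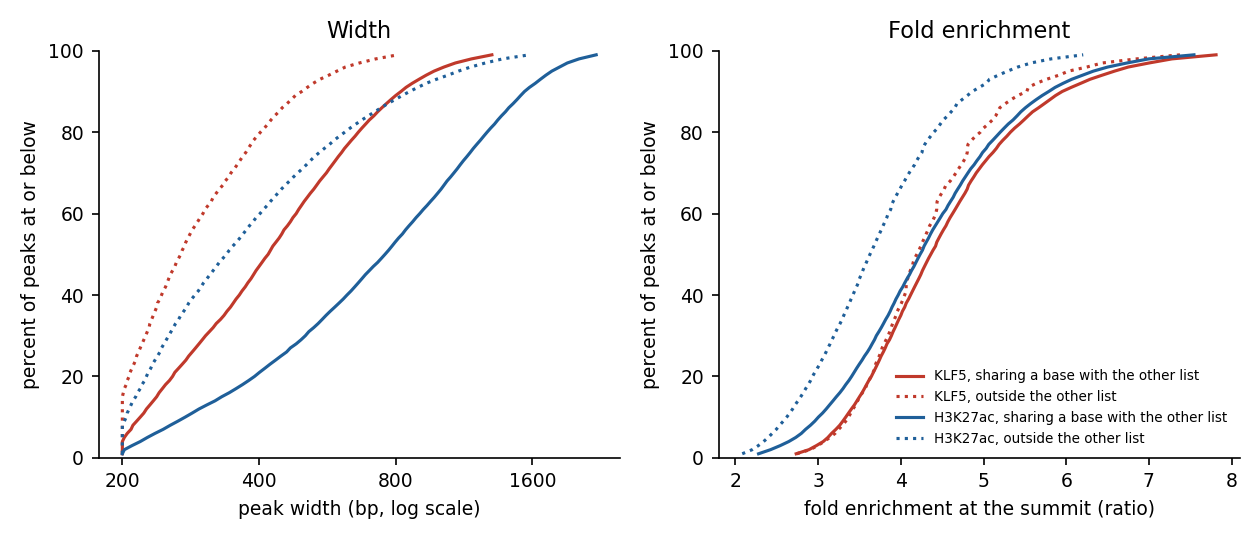
Percent of HaCaT peaks (vertical axis) at or below a given width in bp (left, log scale) or fold enrichment at the summit (right), drawn from the 1st to the 99th percentile, for KLF5 (red) and H3K27ac (blue) peaks that share a base with the other list (solid) or do not (dotted). The solid width curves lie to the right of the dotted ones, with medians of 419 against 269 bp for KLF5 and 758 against 339 bp for H3K27ac, while the KLF5 fold curves nearly coincide below their medians of 4.36 and 4.19.

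When each list was ranked and divided into 10 bands of equal size, H3K27ac peaks showed a steep gradient of KLF5 overlap. From the band of H3K27ac peaks with the lowest −log10 q to that with the highest, the share with KLF5 went from 12.7% to 87.1%, with 39.4% over all H3K27ac peaks. By fold enrichment it went from 19.7% to 70.5%, and by width from 13.0% to 81.5%. Each of these 3 gradients rose at every step. The bands also differed in room for a KLF5 peak, with median widths of 235 bp at the lowest −log10 q and 1288 bp at the highest. KLF5 summits per kb of H3K27ac peak went from 0.271 to 0.751 between these 2 bands, and from 0.389 to 0.870 by fold enrichment. By width they did not rise throughout, as given above.

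The KLF5 peaks showed a flatter and, by fold enrichment, a curved relation. By width the share in H3K27ac went from 46.4% in the narrowest band to 95.7% in the widest, and by −log10 q from 52.0% to 93.6%, with 72.7% over all KLF5 peaks. Wider KLF5 peaks also have more room. H3K27ac summits per kb of KLF5 peak numbered 1.03 in the narrowest band, 1.42 in band 7 and 0.988 in the widest. By fold enrichment, the lowest band stood at 75.0% (95% interval 73.1 to 76.7%), band 4 at 66.4% (64.4 to 68.3%) and the highest at 82.3% (80.7 to 83.8%). KLF5 peaks of the lowest fold thus lay in H3K27ac more often than those of band 4, although their median width was smaller, 263 against 303 bp. The gap lay among peaks with a −log10 q under 5, of which 73.8% of 1966 overlapped in the lowest band and 55.8% of 1447 in band 4. Peaks of these bands with a −log10 q of at least 5 overlapped for 84.3% of 261 and 85.9% of 780.

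**Figure D2:**
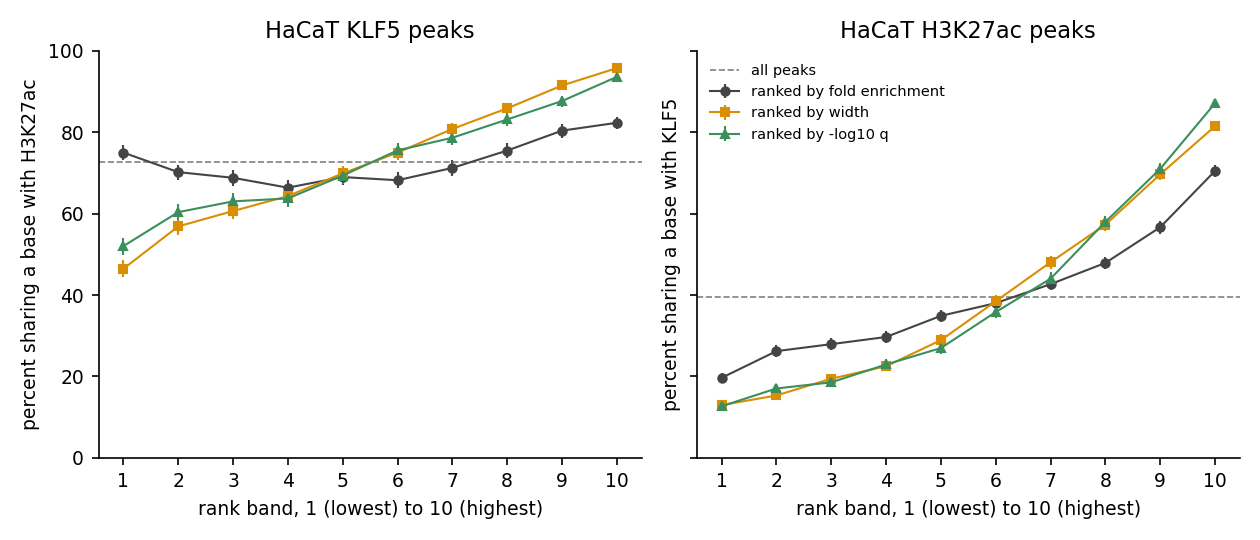
Share of HaCaT KLF5 peaks that share a base with H3K27ac (left) and of H3K27ac peaks that share a base with KLF5 (right), in percent, for 10 equal bands of each list ranked by fold enrichment (grey circles), width (orange squares) or −log10 q (green triangles), with 95% Wilson intervals; the dashed lines are the shares over all peaks, 72.7% and 39.4%. The H3K27ac curves climb throughout, to 87.1% by −log10 q, while the KLF5 curve by fold enrichment dips to 66.4% in band 4.

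The strengths of the 2 signals at shared places were related. For the 14902 KLF5 summits inside an H3K27ac peak, Spearman's rho between the fold enrichment of the KLF5 peak and that of the H3K27ac peak was 0.42, and between their widths 0.25. Both values come from the same places in the genome and the same cell line, and copy number and local background, which both libraries share, were not measured. The H3K27ac peaks that held these summits had a median width of 864 bp, against 449 bp over the whole H3K27ac list.

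KLF5 summits lay near H3K27ac summits, and in H3K27ac peaks of most widths they were less central than the H3K27ac summits. Among KLF5 peaks that shared a base with H3K27ac, the median distance from the KLF5 summit to the nearest H3K27ac summit was 127 bp, with quartiles of 50 and 250 bp, and 25.1% lay within 50 bp. The share of KLF5 summits with an H3K27ac peak at a given distance dropped from 66.9% at the summit to 29.3% and 30.2% at 500 bp on either side. At 1 kb it was 11.5% and 11.6%, and at 3 kb 0.804% and 1.02%.

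Each H3K27ac peak was divided along its length into 5 equal zones. Within H3K27ac peaks of 400 to 799 bp, which held 4711 KLF5 summits, 31.8% of the KLF5 summits fell in the middle zone, against 27.9% of the H3K27ac summits of the same peaks. In all other width classes the H3K27ac summits were the more central. In H3K27ac peaks of 200 to 399 bp, 24.5% of 2055 KLF5 summits and 49.7% of H3K27ac summits were in the middle zone. In those of 1200 to 1999 bp the shares were 25.1% of 3831 KLF5 summits and 36.3% of H3K27ac summits. The 2 outer zones held between 20.6% and 34.1% of KLF5 summits in the 5 width classes and between 8.26% and 12.7% of H3K27ac summits. An H3K27ac summit is the strongest point of its own peak and seldom lies at an edge, so its smaller outer share was largely set in advance. In every class the 2 outer zones held a smaller share of KLF5 summits than of the length, of which they make up 2 of 5 parts.

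**Figure D3:**
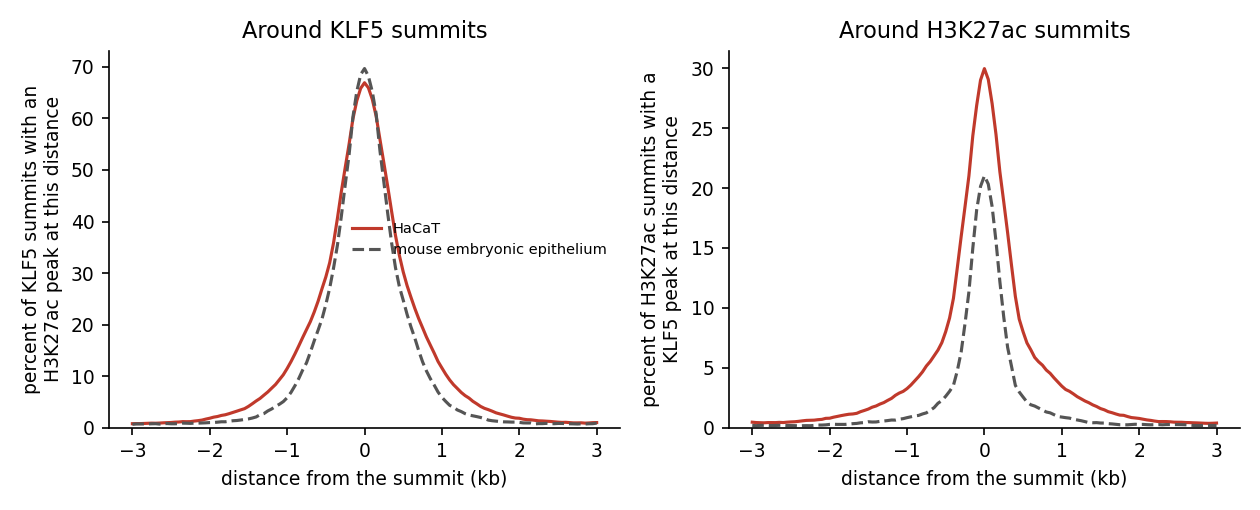
Left: percent of KLF5 summits for which the position at a given distance (kb) lies in an H3K27ac peak. Right: percent of H3K27ac summits for which it lies in a KLF5 peak. Solid red is HaCaT and dashed grey is mouse E17.5 epithelium, each 1 sample per antibody; HaCaT reaches 66.9% on the left and 30.0% on the right, and mouse 69.7% and 21.0%.

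Most KLF5 peaks outside H3K27ac had no H3K27ac peak within 10 kb. How near to H3K27ac evenly placed peaks would lie was not measured. Of the 6082 such peaks, 969 (15.9%) lay within 1 kb of an H3K27ac peak and 2541 (41.8%) within 10 kb. The median gap was 14430 bp, and 775 (12.7%) lay over 100 kb away or on a contig with no H3K27ac peak. A KLF5 peak in the gap between 2 flanking H3K27ac peaks, each within 1 kb, was rare, at 47 peaks (0.773% of those outside).

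Among H3K27ac peaks with KLF5, a single KLF5 peak was the usual number. Of the H3K27ac peaks, 14538 held 1 KLF5 peak and 1098 (2.77%) held 2 or more. The latter had a median width of 1324 bp. The highest number was 4, in 2 H3K27ac peaks that lie close together on chromosome 7. The first (139025070 to 139026820) had a fold enrichment of 5.08 and the second (139043913 to 139046443) 3.28. Of the KLF5 peaks, 583 reached into 2 or more H3K27ac peaks, and these had a median width of 608 bp.

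The widest H3K27ac peak was on chromosome 12 (125398685 to 125402303), spanned 3619 bp and held 3 KLF5 peaks. The next widest, on chromosome 15 (93351787 to 93355179), held 1 KLF5 peak. The third, of 3040 bp on chromosome 5 (148928631 to 148931670), held none. The fourth and the fifth, on chromosome 15 (50645423 to 50648327) and chromosome 11 (62366781 to 62369673), held 2 each. These 5 domains were wide and low, with fold enrichments of 2.35 to 3.31, all below the list's median of 3.85.

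H3K27ac peaks gathered in clusters, and KLF5 was found in nearly all of the large ones. Joining H3K27ac peaks with gaps of up to 12500 bp, a distance often used for enhancer clusters, gave 23442 stitched regions. Of these, 13759 were a single H3K27ac peak and 694 joined 5 or more. The median length was only 2.39 kb for regions of 2 to 4 peaks and 23.7 kb for those of 5 or more. Many joined peaks were thus close neighbours, and 40.5% of H3K27ac peaks had another within 1 kb. A KLF5 summit lay in 38.5% of the single peaks (95% interval 37.7 to 39.3%), in 62.97% of the 8989 regions of 2 to 4 peaks (62.0 to 64.0%) and in 94.1% of the regions of 5 or more (92.1 to 95.6%). Among all 23442 regions the share was 49.5%. These counts include 884 KLF5 summits that lay in the gaps between joined peaks, and larger regions have more room. Summits inside H3K27ac peaks alone numbered 0.608 per kb of H3K27ac peak in single peaks, 0.609 in regions of 2 to 4 and 0.708 in those of 5 or more. Such a summit was found in 643 of the 694 regions of 5 or more (92.7%). The regions of 5 or more held 10.5% of H3K27ac peaks and 8.69% of all KLF5 summits. These 2 shares have unlike bases, since every H3K27ac peak is in a region but only 70.9% of KLF5 summits were. For each H3K27ac peak there were 0.464 KLF5 summits in the regions of 5 or more and 0.398 over all regions.

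All 29 regions of 10 or more H3K27ac peaks held KLF5, with 179 KLF5 summits together. The longest region, on chromosome 1 (209527844 to 209606975, 79.1 kb), joined 16 H3K27ac peaks and held 5 KLF5 summits. The second, on chromosome 17 (8056871 to 8127358, 70.5 kb), joined 13 and held 11, the highest number in any region. The third, on chromosome 19 (45946582 to 46011035, 64.5 kb), joined 12 and held 10. A region on chromosome 16 (67184598 to 67247407, 62.8 kb) joined 10 and held 9, and one on chromosome 15 (60654578 to 60716257, 61.7 kb) joined 16 and held 8. Smaller regions with as many KLF5 summits were the mitochondrial genome, with 9 H3K27ac peaks and 11 KLF5 summits, and 26.9 kb of chromosome 10 (42380084 to 42406949). There, 7 H3K27ac peaks covering only 1.97 kb stood with 9 KLF5 summits. The chromosome 10 region begins shortly after a stretch of 3.23 Mb with no peak in either list, which ends at 42364611. What the peaks of the mitochondrial genome reflect was not tested. Nor was it tested whether those of the chromosome 10 region reflect KLF5 binding or acetylated histones.

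**Figure D4:**
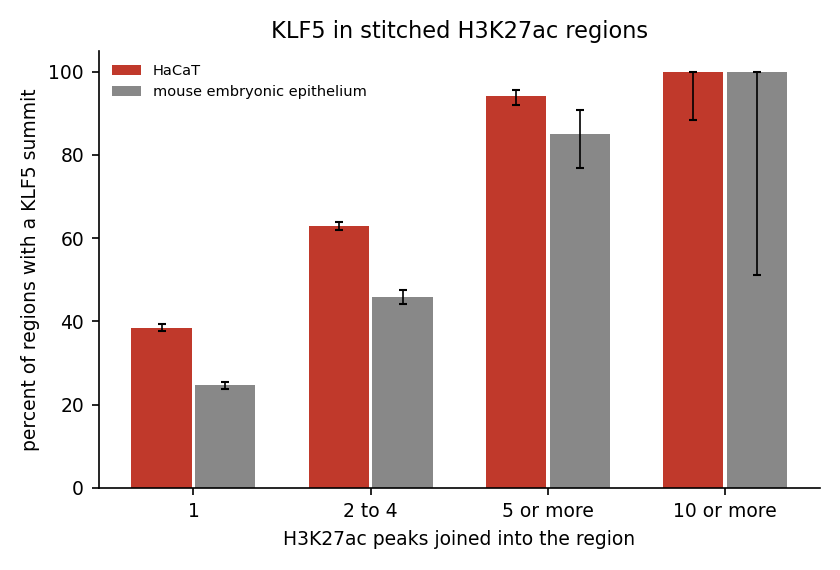
Percent of stitched H3K27ac regions (gap of up to 12500 bp) that hold a KLF5 summit, by the number of H3K27ac peaks joined, in HaCaT (red) and mouse epithelium (grey), with 95% Wilson intervals; the class of 10 or more is part of that of 5 or more. The HaCaT share goes from 38.5% of 13759 single peaks to 94.1% of 694 regions of 5 or more.

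Across chromosomes, KLF5 was spread more unevenly than H3K27ac. Over chromosomes 1 to 22 and X there were 7.57 KLF5 and 13.5 H3K27ac peaks per Mb, or 56.0 KLF5 peaks per 100 H3K27ac peaks. KLF5 density was highest on chromosomes 19, 17 and 22, at 20.4, 15.0 and 14.5 peaks per Mb, and lowest on chromosomes 4, X and 13, at 2.36, 2.60 and 4.76. That is an 8.65-fold range. H3K27ac density was highest on chromosomes 19, 17 and 22, at 24.2, 22.5 and 20.4 per Mb, and lowest on chromosomes X, 4 and 13, at 6.32, 7.69 and 10.1, a 3.83-fold range.

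The densities of the 2 lists went together across the 23 chromosomes (Pearson's r 0.97, Spearman's rho 0.97), and the chromosomes dense in H3K27ac also had more KLF5 for each H3K27ac peak (rho 0.85). KLF5 peaks per 100 H3K27ac peaks stood at 84.5 on chromosome 19, 77.6 on chromosome 20 and 71.2 on chromosome 16, and at 30.7 on chromosome 4, 41.2 on chromosome X and 43.0 on chromosome 6. The chromosomes share library and cell line, and their gene and base content and copy number were not measured here. The share of KLF5 peaks in H3K27ac varied little beside this, from 66.6% on chromosome 13 to 77.7% on chromosome 17.

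**Figure D5:**
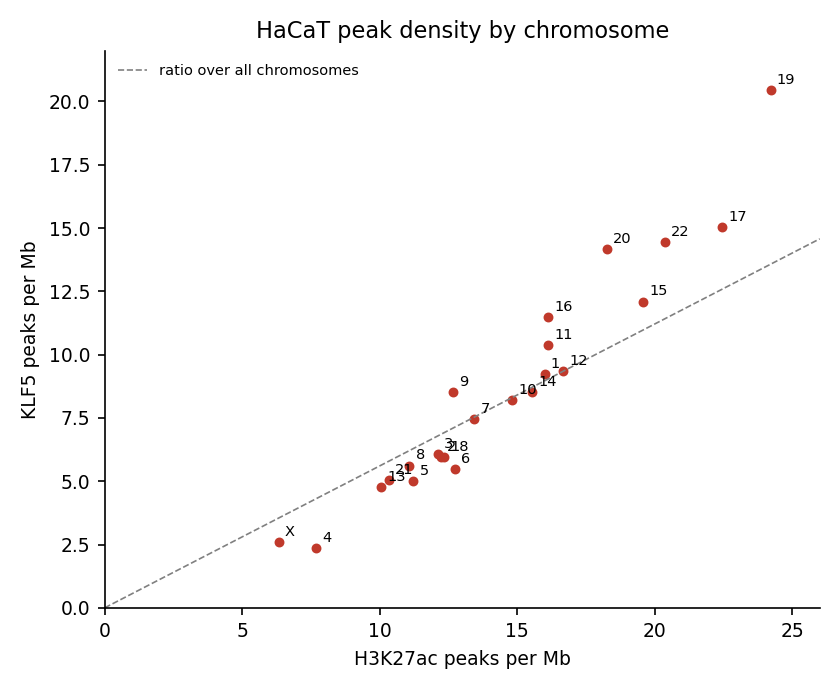
KLF5 peaks per Mb against H3K27ac peaks per Mb in HaCaT, 1 point for each of chromosomes 1 to 22 and X; the dashed line is the ratio over all of them, 56.0 KLF5 per 100 H3K27ac peaks. Chromosome 19 lies highest, at 20.4 and 24.2 peaks per Mb, above the line, and chromosome 4 lies below it, at 2.36 and 7.69.

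Chromosome 9 was split in its peak content. Its longest stretch without any peak, 40792371 to 66458007, separated a part with 2.77 KLF5 and 8.20 H3K27ac peaks per Mb from one with 14.5 and 19.5. KLF5 peaks per 100 H3K27ac peaks were 33.8 in the first part (112 and 331 peaks) and 74.8 in the second (1086 and 1452 peaks). The part after the longest empty stretch of chromosome 4 had 26.2 per 100, and that before it 43.4. In bins of 5 Mb that had at least 20 H3K27ac peaks, this ratio ranged from 9.09 to 110 over 528 bins, with a median of 50.8. Of the 10 lowest bins 6 were on chromosome 4, the lowest at 135 to 140 Mb with 2 KLF5 and 22 H3K27ac peaks. Other high bins were the first 5 Mb of chromosomes 7 and 11, with 113 against 108 and 112 against 108 peaks, and chromosome 9 at 135 to 140 Mb, with 141 against 137. The highest was chromosome 20 at 25 to 30 Mb, with 22 against 20, a bin that contains an empty stretch of 3.29 Mb. Of the 593 bins with a peak, the 59 richest in KLF5 held 29.7% of KLF5 peaks, and the 59 richest in H3K27ac held 22.8% of H3K27ac peaks.

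The KLF5 peaks with the highest fold enrichment were not typical of the list. Of the 10 strongest, 6 lay outside chromosomes 1 to 22 and X, on unplaced or unlocalised contigs, which hold 44 KLF5 peaks in total, and the other 4 lay within 1 Mb of a stretch of at least 3 Mb with no peak in either list. The strongest (unlocalised contig of chromosome 9, 68478 to 68863) had a fold enrichment of 16.6, and its edges lay within 50 bp of those of an H3K27ac peak with a fold of 7.37. The strongest on an assembled chromosome (X, 58561228 to 58561583) had a fold of 13.5 and also coincided with an H3K27ac peak, of fold 8.92. On chromosome 7 (61968793 to 61969659) a KLF5 peak of fold 12.0 and −log10 q 112 coincided with an H3K27ac peak of fold 13.3, the third of its own list.

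The 2 strongest H3K27ac peaks lay close together near the start of chromosome 1 (567390 to 567769 and 569737 to 570117). They had folds of 14.7 and 15.2, and KLF5 peaks of folds 10.2 and 10.7 had almost the same edges. The H3K27ac list had 5 peaks in its strongest 10 that coincided in this way, lay off chromosomes 1 to 22 and X or stood beside an empty stretch. The other 5 included chromosome 1 (148241162 to 148241833, fold 12.9), chromosome 16 (22448054 to 22448771, fold 11.9) and chromosome 22 (50364012 to 50364874, fold 11.7), each with 1 KLF5 peak.

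Such features became less frequent down the list. At least 1 of the 3 marked 10 of the 10 strongest KLF5 peaks, 34 of the strongest 100, 117 of the strongest 1000 and 954 (4.28%) of all. Near-coincident edges were found for 610 KLF5 peaks (2.74%), with a median fold of 4.52 against 4.36 for other KLF5 peaks that shared a base with H3K27ac. Whether these peaks reflect KLF5 binding was not tested. Without the marked peaks in both lists, the share of KLF5 peaks in H3K27ac was 72.2% and that of H3K27ac peaks with KLF5 38.5%.

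Among the KLF5 peaks that shared bases with H3K27ac and had none of these marks, a choice made after their values were seen, the 3 strongest were 650 to 672 bp wide. The first was on chromosome 5 (271275 to 271946, fold 10.5, in H3K27ac of fold 8.70), the second on chromosome 17 (73092042 to 73092691, fold 10.1, in H3K27ac of fold 6.33) and the third on chromosome 11 (66477023 to 66477689, fold 9.84, in H3K27ac of fold 6.34).

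The 5 strongest KLF5 peaks outside H3K27ac were 343 to 383 bp wide, above the median of 269 bp for KLF5 peaks outside H3K27ac. The first 2 were close together on chromosome 17 (22253028 to 22253401, fold 11.5, and 22261402 to 22261784, fold 10.8), at the edge of an empty stretch. The third was on chromosome 21 (9826865 to 9827244, fold 10.3), and the fourth and the fifth, both beside empty stretches, were on chromosome 2 (92269318 to 92269681, fold 9.76) and chromosome 1 (121478501 to 121478843, fold 9.42). With such places set aside after the values were seen, the next were on chromosome 2 (124114188 to 124114565, fold 9.09) and chromosome 20 (51820483 to 51820842, fold 8.76).

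The 5 widest KLF5 peaks had lower folds than the strongest, of 2.32 to 5.81. The first and the fourth of them carried marks like those of the strongest peaks. The widest, on chromosome 6 (58776583 to 58779317), spanned 2735 bp at a fold of 4.37, shared bases with H3K27ac and ended at an empty stretch. The second (X, 149106729 to 149108943), the third (7, 44835436 to 44837427) and the fifth (2, 131565047 to 131566968) had folds of 5.41, 4.68 and 5.81, and each shared bases with H3K27ac. The fourth was in the mitochondrial genome (1983 to 3935), with a fold of 2.32 and edges nearly equal to those of an H3K27ac peak.

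Beside HaCaT, the mouse epithelium had fewer KLF5 peaks and a similar share of them in H3K27ac. There, 4789 of 6472 KLF5 peaks shared a base with H3K27ac, or 74.0% (95% interval 72.9 to 75.0%), against 72.7% in HaCaT. From the other side 25.9% of mouse H3K27ac peaks (25.3 to 26.6%) shared a base with KLF5, against 39.4%. The ratio of list lengths differs in the same direction, with 6472 KLF5 for 18155 H3K27ac peaks in mouse and 22269 for 39681 in HaCaT. Species, cell state and depth cannot be told apart with 1 sample each.

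Of the other features of the HaCaT lists, some were alike in mouse and some were not. Median KLF5 and H3K27ac widths were 338.5 and 446 bp, and mouse H3K27ac peaks with KLF5 had a median of 713 bp against 383 bp without. The median distance from KLF5 to H3K27ac summits for overlapping peaks was shorter in mouse, 87 bp against 127 bp. The share of stitched regions of 5 or more H3K27ac peaks with a KLF5 summit was 85.0% of 100 in mouse (76.7 to 90.7%) and 94.1% of 694 in HaCaT. Among stitched regions of any size it was also lower in mouse, at 30.2% against 49.5%. The rank correlation of KLF5 and H3K27ac fold at shared places was 0.19 in mouse, over 4509 KLF5 summits, and 0.42 in HaCaT. By fold enrichment the lowest band of mouse KLF5 peaks overlapped H3K27ac for 66.7%, band 4 for 67.5% and the highest for 88.7%. The smallest mouse share was 65.8%, in band 2, so the lowest band stood little above it, unlike in HaCaT. In mouse H3K27ac peaks of 400 to 799 bp, 31.3% of KLF5 summits and 36.1% of H3K27ac summits were in the middle zone, the reverse of the order in HaCaT.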

How the data were processed

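KLF5 and H3K27ac ChIP-seq peaks of HaCaT cells were analysed, 1 sample per antibody, with the mouse peak lists for comparison. The authors deposited 1 peak list per sample. The submitters' processing notes list MACS2 as peak caller, Bowtie (1.0.1) and Bowtie2 (2.2.3) as aligners, without saying which made these lists, and hg19 and mm10 as builds. Neither the caller's threshold nor the control library is given in the sources used here. The series holds 1 ChIP-seq sample titled IgG, from mouse, and none titled as a HaCaT control. Each peak's name carries the tag MERGE, which no source explains. The deposited values are, for each peak, a fold enrichment (a ratio), −log10 p and −log10 q, and the summit position; the deposited score is the whole-number part of 10 times −log10 q and was not used. The smallest −log10 q was 1.37 for KLF5 and 1.35 for H3K27ac. Peak names are numbered without gaps to 22269 and 39681.

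From these files, peaks were compared on hg19 without conversion of coordinates (Python 3.11.15, numpy 2.4.6, pandas 2.3.3, scipy 1.17.1), and starts were made 1-based. Overlap meant at least 1 shared bp; bedtools 2.31.1 gave the same counts. The interval functions were tested on simulated lists against direct enumeration. Density used the span from the first to the last peak of a chromosome in either list. Rank bands were taken within 1 list. No test was made, since each assay had 1 sample. The members, gene lists and comparisons were chosen with earlier results of these data known; a planned description of gene starts, gene lists and motifs was not carried out, because no hg19 annotation or genome was used here. Peaks named are the 10 of highest fold and the 5 widest of each list, the 5 strongest KLF5 peaks outside H3K27ac, the H3K27ac peaks and stitched regions with most KLF5, the longest regions, and the chromosomes of extreme density; ties and repeats are given once or as counts. The RNA libraries of the series were not analysed here.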

Additional observations from a re-analysis of the deposited data

How the results depend on the processing

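No paired analysis was possible because each HaCaT assay had 1 sample and no result came from a test. The read depth behind the lists is unknown, which limits how the peak numbers of the 2 lists can be compared. Gene starts and motifs were not analysed here, so no other setting was run for them. The share of KLF5 peaks in H3K27ac (72.7%) was 66.5% when 50% of the peak had to be covered, 66.9% by summit and 77.0% within 1 kb. The share of H3K27ac peaks with KLF5 (39.4%) was then 22.2%, 30.0% and 50.1%. With both lists limited to a −log10 q of at least 5 the shares were 72.1% and 37.7%, and at 10 they were 60.0% and 27.01%. With only the list in question limited, alternatives chosen after seeing the data, the KLF5 share was 81.8% and 91.3%, and the H3K27ac share 53.7% and 77.2%. Both shares thus moved in opposite directions according to whether the other list was also shortened. Without marked peaks, also chosen after seeing the data, the H3K27ac share was 38.5%. At these limits 12627 and 4085 KLF5 peaks were left, with median widths of 492 and 688 bp, and 23877 and 9046 H3K27ac peaks, of 698 and 1113 bp. The median fold of H3K27ac peaks with KLF5 was 4.29 by summit, and that of those without 3.69 by summit and 3.75 by 50% coverage. Stitched regions holding KLF5 made up 45.9% with a gap of 5 kb and 52.1% with 20 kb. The other 12 values, among them both shares on chromosomes 1 to 22 and X and all median folds of KLF5 peaks, stayed within their intervals or, for the number of stitched regions, within 1.5 times the main value.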

Other observations

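On chromosomes 1 to 22 and X there were 30 stretches of at least 3 Mb with no peak of either list, 168 Mb in all. The longest were on chromosome 9 (40792371 to 66458007, 25.7 Mb), chromosome 1 (121485537 to 143743091, 22.3 Mb), chromosome 16 (32840697 to 46385941, 13.5 Mb) and chromosome X (86781125 to 98733428, 12.0 Mb).

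The stretch on chromosome 6 from 28458145 to 33524589, 5.07 Mb long, had many peaks around it. The 5 Mb before it held 55 KLF5 and 138 H3K27ac peaks, and the 5 Mb after it 86 and 149. These H3K27ac counts were the highest for any of the 30 stretches, while the KLF5 counts were not: the 5 Mb before and after the stretch on chromosome 20 held 53 and 112 KLF5 peaks. The stretch on chromosome 6 is known to hold the major histocompatibility complex, a gene-dense region for which hg19 also has alternate haplotype sequences. The H3K27ac list has 2 peaks on an alternate haplotype contig of another chromosome, and the KLF5 list has none on such a contig. How reads from this stretch were aligned was not tested. Shares and densities of chromosome 6 given above therefore leave this stretch without peaks.

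The mitochondrial genome held 11 KLF5 and 9 H3K27ac peaks, and unplaced or unlocalised contigs 44 and 40.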
